A study of Bos indicus with 12 samples.

Results

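In 42 long stretches of the cattle genome, every CpG cytosine covered in all 12 animals had a low mean methylation level in muscle. The stretches were chosen by their level. Along each autosome, with both strands together, consecutive cytosines were joined as long as each had a mean methylation level under 5% over the 12 animals and no gap between neighbours exceeded 2000 bp. A run was kept where it spanned 3000 bp or more and held 20 or more cytosines. The 42 stretches were part of 6748 autosomal runs with 20 or more cytosines. Of the other runs, 5160 were unmethylated but shorter than 3000 bp, and 1546 lay at 5% or above. The low level of the stretches is therefore a consequence of the choice and is given as a description.

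The cytosines came from reduced representation bisulfite sequencing (RRBS) of the *longissimus thoracis*, a muscle of the back, with 1 library per animal. All 12 animals were Nelore (*Bos indicus*) steers raised in feedlots under the same feed and handling and slaughtered at 25 months of age on average. The Tough group (n = 6) was chosen for a high shear force, the force needed to cut the cooked meat, and so a low tenderness, and the Tender group (n = 6) for a low shear force and high tenderness. The animals were the extremes of a larger herd by estimated breeding value, with no treatment, and each sample is whole muscle in which cell types cannot be separated.

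In mammals, most CpG dinucleotides are methylated by DNA methyltransferases, and the exceptions cluster in CpG islands, which often cover gene starts. Long unmethylated regions, called valleys or canyons, are known mainly from genes that control development, where Polycomb proteins, histone marks and TET enzymes take part in keeping them free of methylation. RRBS cuts DNA with MspI at CCGG and sequences the ends of short fragments, so that it reads CpG-rich DNA and leaves unread intervals between the cut sites. Bisulfite turns unmethylated cytosine into a base read as T, and unmethylated cytosine that escapes this conversion is read as methylated.

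The stretches spanned 3017 to 7841 bp, with a median of 3513 bp, and 21 of the 42 were under 3500 bp. Together they covered 161493 bp. They held 20 to 148 cytosines each, with a median of 61.5, and 2749 in all. These were 0.437% of the 629700 autosomal cytosines and 0.830% of the 331116 autosomal cytosines under 5%. The 2749 cytosines belonged to 2294 CpGs, of which 455 (19.8%) were in the table on both strands, and they were split nearly evenly between the plus strand (1350) and the minus strand (1399). Runs near the limits did not stand apart from one another. The 3 shortest stretches, S30, S21 and S29, spanned 3017, 3061 and 3073 bp and the 3 longest runs that were left out spanned 2981, 2975 and 2962 bp. Only 2 runs reached 3000 bp with fewer than 20 cytosines. They held 14 and 8.

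The longest stretch, named S03 here, lay at chr1:79587091-79594931 (build ARS-UCD1.2, as are all positions). It spanned 7841 bp and held 88 cytosines in 13 clusters, cytosines of a cluster being at most 100 bp from the next. S35, at chr23:7283035-7288849, followed with 5815 bp and 44 cytosines. S13 at chr7:98007948-98013263 spanned 5316 bp, and S06 at chr4:117488801-117493866 spanned 5066 bp. These 4 were the only stretches of 5000 bp or more. The next 6 in length were S23 (4699 bp), S01 (4629 bp), S34 (4571 bp), S04 (4536 bp), S12 (4493 bp) and S38 (4330 bp). Longer stretches held only slightly more cytosines. Over the 42 stretches, which share their libraries, Pearson's r between span and number of cytosines was 0.228.

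The density of cytosines ranged from 4.41 to 38.1 per kb, with a median of 16.1. The densest stretches were S36 at chr24:3483225-3486929 with 38.1 per kb, S38 at chr25:1242078-1246407 with 34.2, S26 at chr18:18309037-18312120 with 31.5, S37 at chr24:37524807-37528475 with 29.4 and S31 at chr19:51360800-51364261 with 28.3. S38 (148), S36 (141), S12 (121), S37 (108) and S34 (103) held the most cytosines. At the other end, S04 at chr2:25641665-25646200 held only 20 cytosines over 4536 bp.

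Shorter unmethylated runs were denser, with a median of 49.7 cytosines per kb. Each run needed at least 20 cytosines whatever its length, so that the shortest runs are dense by construction. Among the shorter runs, the median density fell from 152 per kb in those under 250 bp to 16.7 per kb in the 29 runs of 2750 to 3000 bp, close to the 16.1 of the long stretches.

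**Figure D1:**
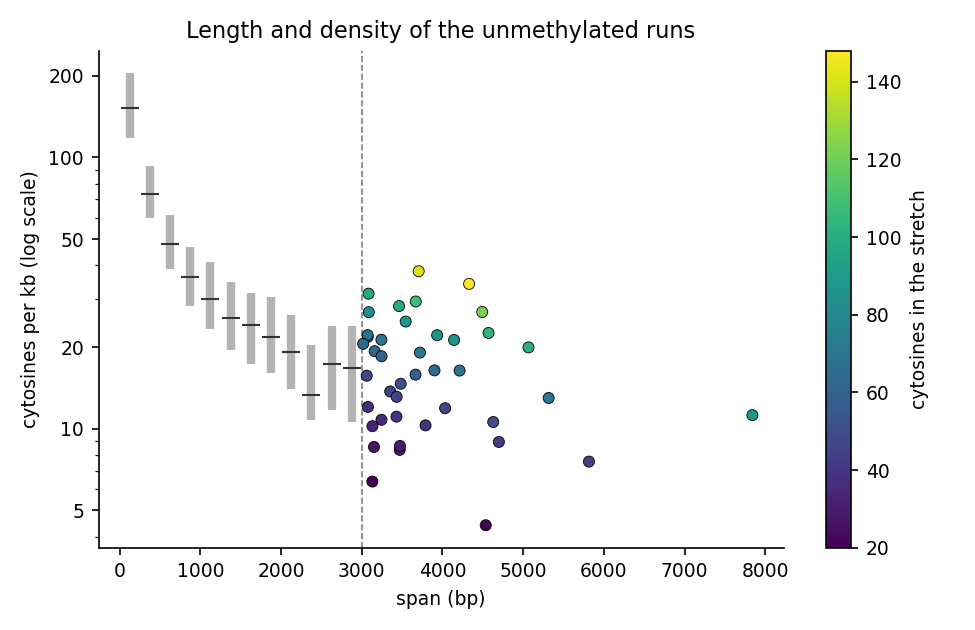
Length in bp (x axis) against cytosines per kb (y axis, log scale). Each point is 1 of the 42 stretches, coloured by its number of cytosines; grey bars and black ticks give the quartiles and the median of the shorter unmethylated runs in bins of 250 bp, and the dashed line marks 3000 bp. The stretches continue the low-density end of the shorter runs, and the longest one, at 7841 bp, stands apart to the right.

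Most of the length of the stretches lay away from the cytosines of the table, which holds only those with at least 10 reads in all 12 animals. The largest gap between neighbouring cytosines of a stretch ranged from 544 to 1991 bp, with a median of 1332 bp, and exceeded 1000 bp in 29 of the 42. The cytosines of a stretch fell into 4 to 13 clusters, with a median of 7. Only 31.3% of the summed length lay within 50 bp of a measured cytosine, and this share was under 50% in 41 of the 42 stretches. S16 at chr10:86486997-86490083 was the best covered, with 56.5%, and S27 at chr18:55277397-55280527 the least, with 13.6%. The table gives no level for the DNA between the clusters, whether or not it was read in some animals.

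The stretches lay on 21 of the 29 autosomes. Chromosome 18 held 4, and chromosomes 1, 6, 7, 10 and 25 held 3 each. No stretch was found on chromosomes 3, 8, 9, 17, 21, 26, 28 and 29. Only 4 stretches (9.52%) lay in the last 10% of a chromosome's length, where 27.7% of all autosomal cytosines lay, and 4 lay in the first 10%, where 8.36% of the cytosines lay. Stretches were far from each other. The 2 closest, S38 and S39 on chromosome 25, were 729549 bp apart, and the median distance between neighbours on a chromosome was 14.7 Mb.

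Gene annotation of the build was not used here, so that exons, introns and promoters are not given, and the only gene names are those that the study's own annotation of its candidate sites places in or beside a stretch. These genes were looked up after the values had been seen. The predicted regulatory target named for *MYC*, a proto-oncogene that encodes a transcription factor of cell growth, started inside S22 at chr14:12656538-12659611. S22 spanned 3074 bp with 67 cytosines, had a mean level of 0.682%, and 26 of its cytosines had no methylated read in any animal. The other 3 names belong to single cytosines that the study called between these same groups, so that their group values below are no independent evidence. S12, at chr7:93048075-93052567, ended 3417 bp before the one nearest to *NR2F1*, which encodes an orphan nuclear receptor that acts as a transcription factor in development. At that cytosine the level was 62.6 ± 9.01% in Tough and 87.2 ± 10.4% in Tender (mean ± SD, n = 6 each), against 0.985 ± 0.648% and 0.799 ± 0.213% in S12 itself. Of the 23 cytosines between them, 15 were under 5% and 6 were over 50%, the nearest of the latter 2671 bp beyond the end of S12. S40 at chr25:38882334-38885877 ended 9547 bp before one nearest to *TNRC18*, with 83 of the 153 cytosines between them under 5%. That cytosine had 96.4 ± 3.90% in Tough and 69.8 ± 11.9% in Tender (n = 6 each). S27 ended 18737 bp before one nearest to *NTN5*, which belongs to the netrin family, with 3 of the 14 cytosines between them under 5%. There Tough had 15.6 ± 14.4% and Tender 58.0 ± 16.8% (n = 6 each).

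The ends of the stretches were examined next, because a run ends either where the table holds no further cytosine within 2000 bp or where a single one reached 5%. Of the 84 ends, 25 were gaps of more than 2000 bp and 59 were a cytosine at 5% or above. Most of these cytosines were only just above the limit. Their median level was 6.40%, 49 of the 59 were under 10% and only 2 were over 50%, at the right ends of S20 (89.7%) and S27 (78.3%). After 36 of the 59 (61.0%), the next cytosine was again under 5%. Without its highest animal, the mean of the ending cytosine was under 5% at 28 of the 59 ends, and in only 3 did all 12 animals reach 5%. The shorter runs ended in much the same way, with a median of 6.36% at the ending cytosine and 64.3% resuming after it. Within a stretch the level hardly changed with the distance from the end. It was 1.21% within 100 bp of the nearer end (494 cytosines) and 1.10% at 1500 to 4000 bp (444 cytosines). Outside, the median level over the pooled cytosines was 1.02% within 100 bp and 0.833% at 1000 to 2000 bp. There, 86.0% of the cytosines were still under 5%. These values come from 59 of the 84 ends, since the 25 gap ends have no cytosine within 2000 bp, and flanks with many cytosines weigh most. Taken per end, the mean within 2000 bp had a median of 2.92% and ranged from 0.880% to 89.1%.

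**Figure D2:**
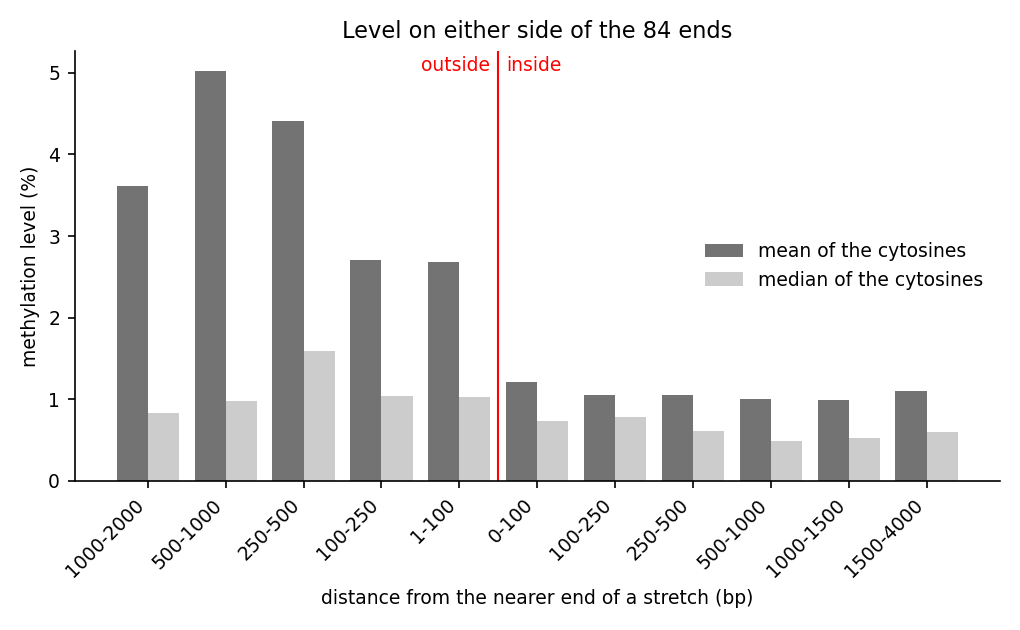
Methylation level (y axis, percent) of cytosines by distance from the nearer end of a stretch (x axis, bp), outside (left of the red line) and inside; dark bars are means and light bars medians over cytosines, each the mean of 12 animals. The medians stay between 0.490% and 1.59% on both sides, and the means outside reach 5.02% at 500 to 1000 bp. The bars outside pool the cytosines of the 59 ends that have any within 2000 bp.

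When isolated cytosines at 5% or above were allowed, 221 stretches were found, the longest of 8742 bp at chr25:38879161-38887902, which contains S40. Of the 42 stretches, 28 became longer and 14 kept their length, and the median span of the runs that held them was 4221 bp.

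Over the 2749 cytosines, the mean level was 1.06% and the median 0.595%. In 732 (26.6%), no animal had a methylated read. The mean level per stretch ranged from 0.681% in S02 at chr1:64860135-64863210 to 1.87% in S18 at chr11:102652844-102656087. Shorter unmethylated runs had a mean level of 0.957%. These levels are bounded by the choice of the runs and were not tested.

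The 12 animals did not share 1 low level. The mean over the cytosines of the stretches was 0.623% (lowest), 1.01% (median) and 1.41% (highest) in Tough, and 0.675%, 1.25% and 1.37% in Tender. Both groups held animals on either side of an empty range from 0.789% to 1.19%. The unmethylated spike-in control of the study separates the same animals into 5 with a higher bisulfite conversion (Tough 2, 5 and 6 and Tender 8 and 11) and 7 with a lower one (Tough 1, 3 and 4 and Tender 7, 9, 10 and 12). The stretches had 0.702 ± 0.065% in the former (mean ± SD, n = 5, range 0.623 to 0.789%) and 1.32 ± 0.083% in the latter (n = 7, range 1.19 to 1.41%), a 1.89-fold higher level. Residual methylation and incomplete conversion cannot be told apart in these values.

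**Figure D3:**
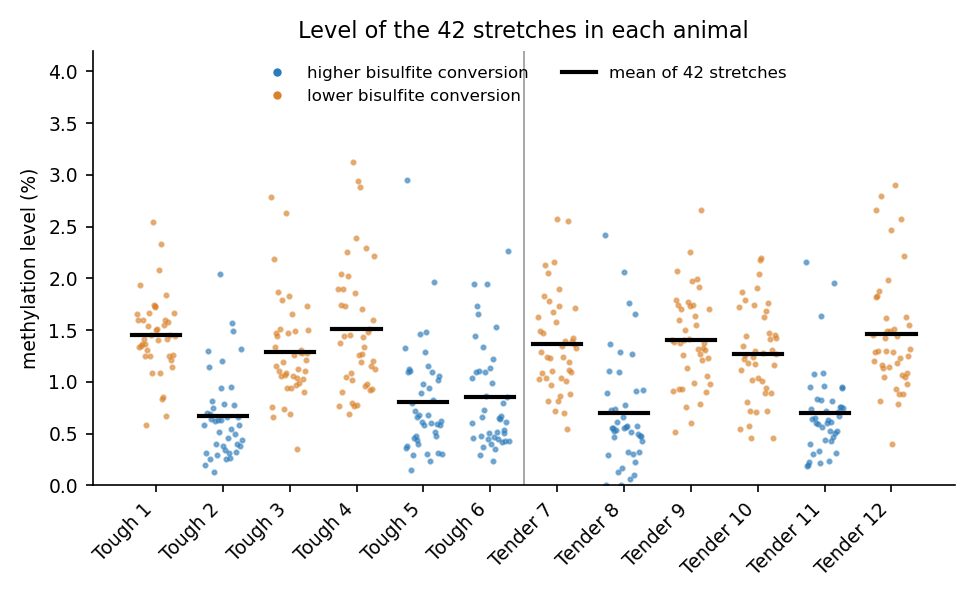
Methylation level (y axis, percent) of the 42 stretches in each of the 12 animals (x axis); each dot is 1 stretch and each black line the mean over stretches, with colours for the conversion class. The 5 animals with higher conversion have the 5 lowest means, in both groups, and no dot reaches 5%.

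The class means differed in the same direction in every stretch, although the classes overlapped in most. The mean of the lower conversion class was above that of the higher class in 42 of 42 stretches, as it was in 89.0% of all 6748 runs, 97.3% of the shorter unmethylated runs and 61.2% of the runs at 5% or above. The difference in a stretch ranged from 0.204 to 1.25 percentage points, with a median of 0.630, close to the 0.627 of the shorter runs. In S32, where it was 0.204, the class medians went the other way, with 0.830% in the higher class and 0.786% in the lower. The classes did not overlap at all in 7 stretches (S15, S29, S34, S35, S36, S40 and S42), 16.7% of the 42, where the same held for 10.3% of all runs, 13.3% of the shorter ones and 0.129% of those at 5% or above. A lower conversion animal was the highest in 40 of the 42 and a higher conversion animal the lowest in 40. The share of the cytosines with no methylated read was 89.1 ± 0.992% in the higher class and 77.6 ± 2.60% in the lower. Cytosines over 90%, measured in the same libraries, had 94.9 ± 0.564% and 95.1 ± 0.245%, with overlapping ranges. The 162 mitochondrial cytosines of the table, all under 5%, had 0.306 ± 0.157% and 0.572 ± 0.0973%, with ranges that overlapped (0.115 to 0.505% and 0.408 to 0.692%).

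The limit of 5% is applied to the mean, and the number of stretches differed with the animals averaged. Taking the mean over the 5 animals with higher conversion gave 70 stretches, which overlapped 28 of the 42, and over the 7 with lower conversion 10, which overlapped 9. These means also rest on fewer animals, and the part of that in the difference was not tested.

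**Figure D4:**
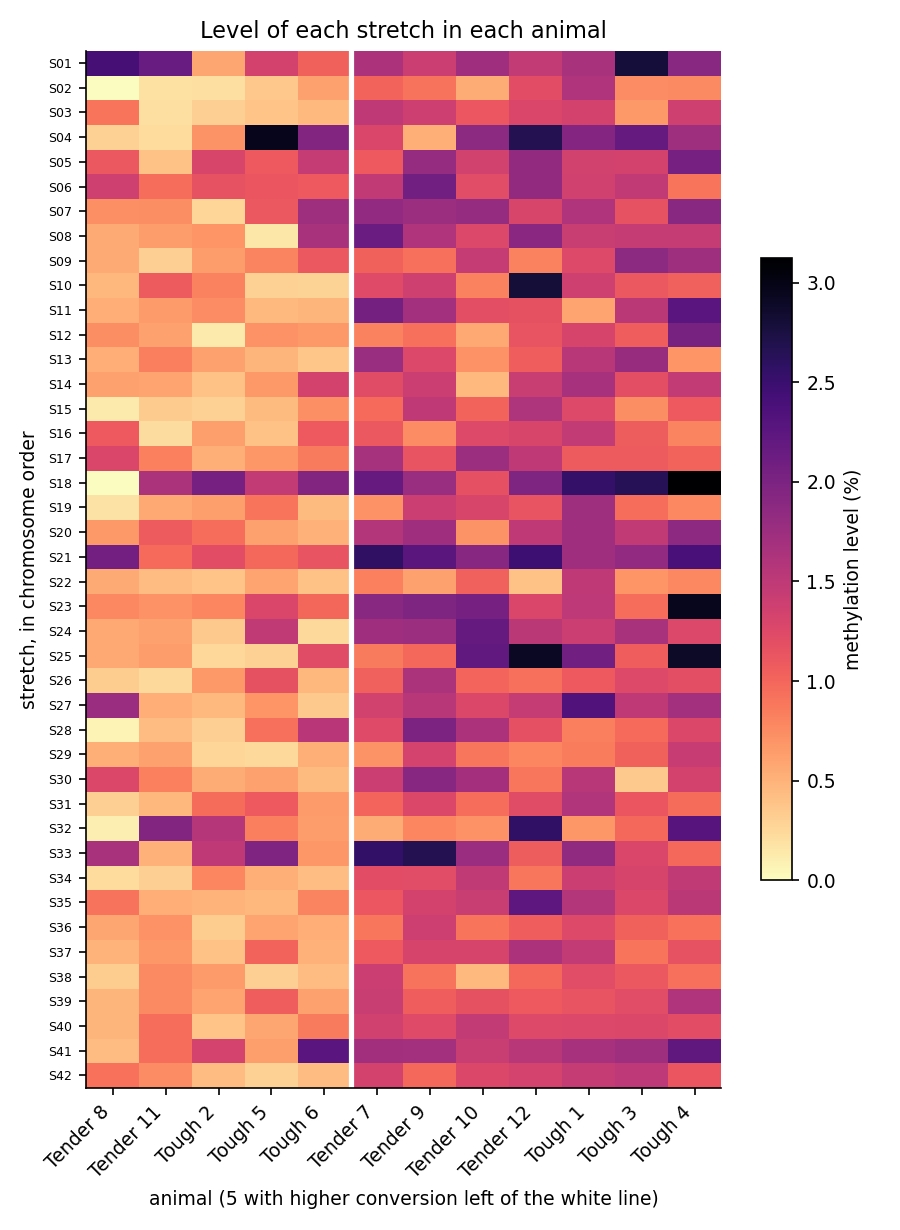
Methylation level (colour, percent) of each stretch (rows, in chromosome order) in each animal (columns), with the 5 animals of higher conversion left of the white line. The columns on the right are darker in nearly every row, and the darkest cells are spread over different rows and animals, up to 3.12% in Tough 4.

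The largest departure of a single animal from the others was small. No animal reached 5% in any stretch, and the highest value was 3.12%, in S18 for Tough 4. The highest animal exceeded the median of the 12 by 0.233 to 1.88 percentage points, with a median of 0.752, while shorter runs had a median of 1.07. The shorter runs held fewer cytosines, with a median of 29 against 61.5, and the part of counting error in this was not tested. Tough 4 was the highest animal in 10 stretches and Tough 1 in 7. Departures were larger where the cytosines were sparser. Over the 42 stretches, which share the libraries and differ in the number of reads behind a value, Pearson's r between density and departure was -0.611.

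Tender 12 departed most. In S25 at chr16:32142844-32145994 it had 2.90%, 1.88 points above the median of 1.02%, with 20 methylated of 733 reads (2.73%, Wilson 95% interval 1.77 to 4.18%). It was not alone there, since Tough 4 had 2.88%. In S32 at chr20:40993165-40996634, Tender 12 had 2.57%, 1.76 points above the median, and the next animal had 2.29%. In S10 at chr6:69724555-69728344, it had 2.80% against a median of 1.06%, with 21 methylated of 944 reads (2.22%, 1.46 to 3.38%). The next animal had 1.37%, but Dixon's test, given below, did not flag Tender 12 in S10. A single cytosine at 30.8% raised the level of Tender 12 there, which was still 2.06% without that cytosine. Tough 4 departed in S23 at chr15:73669457-73674155, with 2.94% and 36 methylated of 1200 reads (3.0%, 2.17 to 4.13%) against a median of 1.29%. It also departed in S11 at chr7:11507148-11510577, with 2.26% against 0.956%, where the next animal had 2.05%. Both animals belong to the lower conversion class. These intervals cover counting error only.

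Single cytosines departed far more than whole stretches. Of the 32988 values (2749 cytosines in 12 animals), 128 (0.388%) were 20% or more, in 121 cytosines of 41 stretches. The share was 0.331% in the shorter runs. At 119 of the 128, the median of the other animals was 0%. Of the 125 with another measured cytosine within 50 bp, 58 had neighbours at exactly 0% in that animal and 112 had neighbours under 5% on average. The choice of the stretches favours these counts. A mean under 5% leaves little room for a second high animal, and every neighbour inside a stretch has a mean under 5%. On average, 82.6% of the cytosines in a Tough animal and 82.1% in a Tender one had no methylated read. The counts were not made for values under 20%. Levels were computed from the scaled and rounded values of the table and reads are those before scaling, so that the ratio of reads can differ slightly from the level. Few reads stood behind the 128 values, with a median of 4 methylated and of 17 in all. Of the 128, 64.1% had fewer than 20 reads, against 29.5% of all values in the stretches. The highest was 38.5% in Tough 5 at chr25:1979172 in S39, from 5 of 12 reads, where the other 11 animals and the 5 neighbouring cytosines of Tough 5 were all at 0%. Some had more reads behind them. Tough 4 had 12 methylated of 38 reads (31.3%) at chr18:61574895 in S29, where the highest other animal had 3.33% and the 3 neighbours were at 0%. Tough 1 had 11 of 34 reads (32.4%) at chr25:1979590 in S39, again with its 5 neighbours at 0%. The 128 values were spread over the classes, with 51 in the 5 animals of higher and 77 in the 7 of lower conversion.

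The comparison of the study is between Tender and Tough. The rule treated both groups alike, but a mean under 5% over equal groups keeps the difference of their mean levels at 10 points or less. Pooled over reads, as in the model, the difference is not strictly bound by this and reached 9.77 points at a cytosine of the stretches. The choice thus leaves little room for a difference, and no cytosine of a stretch met the study's criterion of a difference above 25 points. Over the stretches the mean level was 1.03 ± 0.354% in Tough and 1.10 ± 0.331% in Tender (mean ± SD, n = 6 each), a difference of 0.063 points, less than the spread within either group. Within the higher conversion class, Tough had 0.719 ± 0.086% (n = 3) and Tender 0.677 ± 0.0027% (n = 2). Within the lower class, Tough had 1.35 ± 0.098% (n = 3) and Tender 1.31 ± 0.081% (n = 4). In both classes Tender was thus the lower group, by less than the spread in Tough. Tender was higher in 27 of the 42 stretches (64.3%), as in 61.5% of all runs and 59.7% of the shorter ones. The 2 conversion classes gave the same sign of the group difference in 22 of the 42 stretches.

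None of the stretches passed the test as a whole. A logistic model with overdispersion was fitted to the reads of each of the 6748 runs, and its p-values were adjusted over all runs (Benjamini-Hochberg). It called 6 runs (0.0889%), 0 of which were long stretches. The F-test and limma also called 0 stretches. The lowest adjusted p in a stretch was 0.626. By unadjusted p-values, 3 stretches (7.14%) were under 0.05, where 5.26% of all runs were, and limma put 2 under 0.05. The groups did not overlap in 0 of the 42, which was also rare over all runs (0.133%).

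**Figure D5:**
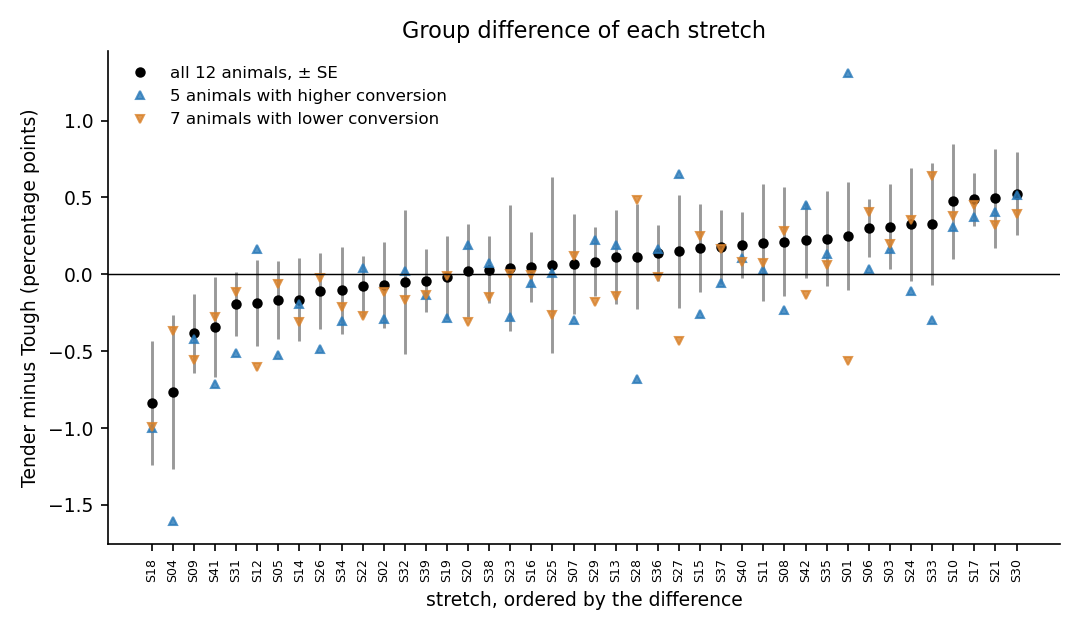
Tender minus Tough level (y axis, percentage points) of each stretch (x axis, ordered by the difference); black points are all 12 animals with the standard error of the difference of means, blue and orange triangles the same difference within the 5 animals of higher and the 7 of lower conversion. The differences run from -0.84 in S18 to 0.53 in S30, and the triangles often fall on opposite sides of 0.

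The stretch with the lowest p was S17, at chr11:12375529-12379429, with 64 cytosines. Its level was 0.512% (lowest), 0.942% (median) and 1.08% (highest) in Tough and 0.826%, 1.39% and 1.75% in Tender. The 2 ranges overlapped, and the difference of 0.488 points had an exact two-sided permutation p of 0.0195 for this stretch alone, where the smallest possible p is 0.00216. The difference was 0.375 and 0.449 points within the higher and the lower conversion class. Without Tender 11, which had the lowest Tender value, the adjusted p of S17 was 0.0283 instead of 0.626. S30 at chr19:37879793-37882809 had 0.804 ± 0.504% in Tough and 1.33 ± 0.433% in Tender (n = 6 each, exact permutation p = 0.0801). The others among the 5 with the lowest p that were higher in Tender were S06, S24 and S03, with differences of 0.302, 0.324 and 0.309 points.

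Among the stretches higher in Tough, S04 had the lowest p. Its level was 0.701% (lowest), 1.94% (median) and 2.95% (highest) in Tough and 0.222%, 0.904% and 2.67% in Tender. The groups overlapped widely over its 20 cytosines, and the exact permutation p was 0.160. The difference was -1.61 points within the higher and -0.37 points within the lower conversion class. With the class as covariate, the adjusted p of the logistic model was 0.130, the lowest of any stretch in that fit. In the logistic model without the covariate, the adjusted p was 0.778 with all 12 animals and 0.0514 without Tender 12. S04 had the largest pooled difference, the one the model tests, at -1.02 points against -0.67 in S18. The largest difference in the mean over cytosines belonged to S18, where Tough had 1.46% (lowest), 2.29% (median) and 3.12% (highest) and Tender 0%, 1.71% and 2.16%. The difference of -0.84 points had an exact permutation p of 0.0541, and was -1.0 and -0.99 points within the conversion classes. The others among the 5 with the lowest p in this direction were S09, S41 and S02, with differences of -0.385, -0.344 and -0.067 points. For S03, the longest stretch, Tough had 0.754 ± 0.480% and Tender 1.06 ± 0.472% (n = 6 each), and the 5 animals of higher conversion had 0.449 ± 0.265% against 1.24 ± 0.279% in the other 7. In S22, the stretch that holds the *MYC* target, Tough had 0.722 ± 0.412% and Tender 0.643 ± 0.245% (n = 6 each).

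At the level of cytosines, the same model over all 635469 cytosines of the table called 858 (0.135%), and 1 of the 2749 in the stretches (0.0364%). It was higher in Tender, as were 0.0888% of all cytosines. The share was 0.0366% in the shorter unmethylated runs. By unadjusted p-values, 218 of the 2749 (7.93%) were under 0.05, against 8.29% of all cytosines. The called cytosine was chr1:79594650 on the plus strand, in S03, 281 bp from its right end. All 6 Tough animals were at 0%, with 14 to 20 reads each. The Tender animals had 0%, 4.17%, 5.88%, 8.0%, 11.1% and 22.2%, in order of level, with 0 to 5 methylated reads and 13 to 24 reads in all before scaling. Methylated reads were thus seen in 5 of 6 Tender animals, at 8.56 ± 7.66% (n = 6), and Tough 1 to 6 and Tender 11 had none. The adjusted p of the logistic model was 0.0423, and the exact two-sided permutation p for this cytosine alone was 0.0152. The call was lost on the reads before scaling and with the F-test, where the lowest adjusted p in the stretches was 0.0951. The F-test used the F distribution only where the overdispersion was above 1. At this cytosine it was 0.744, so that its own p was unchanged and only the adjustment over all cytosines moved. With the F-test, 167 of all cytosines were called instead of 858. The call was also lost without Tough 2, Tough 4, Tough 6 or Tender 8, with a lowest adjusted p of 0.0711, 0.0685, 0.0892 and 0.0644. Without Tough 1 or Tough 5 the 1 cytosine called in the stretches was higher in Tough. The 7 other cytosines within 50 bp differed by only 0.107 points on average. In windows of 100 bp, 557 of 193249 were called (0.288%, and 0.189% as higher in Tender) and 1 of 514 in the stretches, chr1:79594601-79594700, which holds this cytosine and differed by 1.34 points (adjusted p = 0.0224 in the logistic model).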

How the data were processed

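Methylation was measured by RRBS in 12 muscle samples, 6 Tough and 6 Tender. Per the submitters' processing notes, FastQC 0.10.1, Trim Galore 0.4.1, Bismark 0.23.0, methylKit 1.8.1 and R 3.5.1 were used, with the build ARS-UCD1.2 (bosTau9). The authors kept cytosines with at least 10 reads and normalized the coverage. The deposited value of each cytosine is a score and not a raw read number. The coverage of each animal was multiplied by 1 factor (1 to 1.27) and rounded, and the methylated and unmethylated values are rounded shares of that coverage. Whole reads were recovered from these factors for an alternative and for intervals. Depth is given by the reads recovered over the stretches, 67169 to 109929 per animal, with a median of 21 to 34 per cytosine.

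The methylation level is methylated over all reads, averaged over cytosines. Tender was compared with Tough by logistic regression on the deposited values with McCullagh-Nelder overdispersion (not below 1) and a chi-square test, at 635469 cytosines, 6748 runs and 193249 windows of 100 bp, each adjusted by the Benjamini-Hochberg method and called at an adjusted p under 0.05. The model is that of the study's methods. The simulated reads used to check the code had no conversion classes, so that its behaviour with such classes was not tested. Exact two-sided permutation tests were used for single stretches and cytosines. Python 3.11.15, numpy 2.4.6, pandas 2.3.3, scipy 1.17.1 and, for an alternative, limma 3.58.1 were used. The conversion class of each animal was read from the unmethylated spike-in in the study's supplement, whose values are not given here. The match of its entries to the animals was inferred from the group letter and the number in their names.

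The stretches, gene lists and tests were chosen with earlier results of these data known. The stretches named are the 10 longest, the 5 with most cytosines, the 5 densest, those nearest the limit of 3000 bp, the 5 with the lowest p in each direction and the 5 with the largest departure of 1 animal. S22, S40, S27, S16, S39, S20, S05 and those listed with separate classes were named outside this rule, after their values were seen. Gene lists were prepared but not used, because no annotation of this build was used here. The planned share of genes that start inside a stretch was not computed. Each animal gave 1 library, so that the spread between animals joins animal and technical variation. In the logistic model this spread enters the p-value only where the overdispersion was above 1. It was above 1 in 41.8% of the cytosines of the stretches and in 100% of the 42 whole stretches. Elsewhere, as at the called cytosine (0.744), the p-value of the model reflects read counting alone.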

Additional observations from a re-analysis of the deposited data

Results flagged for a closer look

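Within each group of 6, the highest and the lowest animal were set against the others by Dixon's test for each of the 42 stretches and for their mean, 86 tests in all. At its 95% limit chance alone would flag about 1 in 20, or 4.3, and 3 were flagged. In S22, the stretch with the *MYC* target, Tough 1 had 1.5% where the other 5 Tough animals had 0.380 to 0.778%. It had 1.12% without its 3 highest cytosines, against 0.608% in the other 11 animals at the same cytosines. In S23, Tough 4 had 2.94% where the other Tough animals had 0.789 to 1.51%, and 1.79% without its 3 highest cytosines against 1.15% in the others. In S05 at chr2:106925565-106928916, Tough 4 had 2.04% where the other Tough animals had 1.10 to 1.45%, but 1.03% without its 3 highest cytosines against 1.28% in the others. All 3 values came from animals of the lower conversion class, and the part of conversion in them was not tested. The overall level of the stretches flagged no animal.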

How the results depend on the processing

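The number of stretches depended on the limits. With a limit of 2.5% or gaps of at most 500 bp there were 0, with gaps of at most 1000 bp 13, with spans of 5000 bp or more 4, with a scaled coverage of 20 or more in every animal 26 (which overlapped only 13 of the 42), with single cytosines at 5% or above tolerated 221, with spans of 2000 bp or more 221 and with a limit of 10% 295. The means over the higher and lower conversion class, chosen after seeing the data, gave 70 and 10. It stayed within 1.5 times with 10 or 40 cytosines, pooled reads, merged strands, reads before scaling (37) and with each animal left out (36 to 52, of which 34 to 39 of the 42 were found again).

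The call of the cytosine in S03 depended on the settings. The number called in the stretches was 0 with the F-test, limma, an adjusted p under 0.01, a scaled coverage of 20 or more (which removes it), reads before scaling and the F-test on those. It was 4 of 2749 with the conversion class as covariate and 54 without overdispersion. Over all 635469 cytosines, the covariate fit called 1483 and the fit without overdispersion 29170. The number in the stretches thus rose along with the number over all cytosines. With 1 animal left out, 0 to 3 cytosines of the stretches were called, and 0 without Tough 2, Tough 4, Tough 6 or Tender 8. Windows gave 0 with the F-test (also before scaling), limma and an adjusted p under 0.01. They gave 2 of 514 with the conversion class and 34 without overdispersion, where 909 and 24162 of all 193249 windows were called. With 1 animal left out they gave 1 to 3, with 2 or 3 without Tough 1, Tough 4, Tough 6, Tender 7 or Tender 12. For whole stretches the number was 6 of 42 without overdispersion, where 957 of all 6748 runs were called. It was 0 in the other 7 alternatives, and 0 to 1 with 1 animal left out, the 1 being S17 without Tender 11. S17, S04 and S30 kept their direction on reads before scaling and with each animal left out, the settings that change their values. The overall Tender minus Tough difference was -0.042 points within both the higher and the lower conversion class and -0.019 to 0.147 with 1 animal left out. The cause of these changes was not tested. No paired analysis was possible because the groups share no replicate number.

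Depth limits single cytosines most, with a median of 21 to 34 reads per cytosine and animal. Levels near 1% cannot be separated from incomplete conversion, and most of each stretch's length lies away from the cytosines of the table.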
